A study of Mus musculus with 12 samples.

Results

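Apolipoproteins are the protein components of plasma lipoprotein particles. Apolipoprotein B forms the backbone of very low density lipoprotein, A-I and A-II are the main proteins of high density lipoprotein, and the small C apolipoproteins, A-V and E regulate how lipases and receptors handle the particles. The liver is a main source of most of them, and several are also made in the intestine, so they are commonly read as a secretory function of the hepatocyte. The genes described here were the 10 mouse apolipoprotein genes Apoa1, Apoa2, Apoa4, Apoa5, Apob, Apoc1, Apoc2, Apoc3, Apoc4 and Apoe. They were chosen by symbol and matched to 10 of the 53715 Ensembl identifiers of the count table.

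Poly(A) RNA of 12 libraries from C57BL/6JOlaHsd mice was sequenced, with 4 biological replicates in each of 3 groups. Hepatoblasts, the embryonic liver progenitors, were Dlk1+ cells taken from E14.5 livers by magnetic separation and lysed at once. Diff. hepatocytes, called the culture below, were E14.5 Dlk1+ cells kept for 4 days on fibronectin in a medium with serum, insulin, transferrin, selenium, dexamethasone and Matrigel, and mature hepatocytes were freshly isolated by collagenase perfusion of adult males aged 8 to 12 weeks. Embryonic livers were pooled for each isolation and the E14.5 Dlk1+ fraction is known from the study's methods to hold some Sox9+ cells, so the first 2 groups are enriched fractions and not pure cell types. Between mature hepatocytes and the other groups, developmental age and the isolation differ together and cannot be told apart. The mature cells were all from males, and the sex of the embryos is not given in the sources used here. Diff. hepatocytes differ from mature hepatocytes in culture as well. Between Diff. hepatocytes and hepatoblasts, the days in culture, the medium with its additives and the coating differ together and cannot be told apart either.

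The counts on genes ranged from 19581551 to 25216977 per library. The hepatocyte markers Alb, Ttr, Serpina1a, Ahsg and Hnf4a were present in each group, and the Dlk1 and Afp sum ran from 30022 to 50653 CPM, counts scaled to a common library size, in hepatoblasts against 35.2 to 64.5 CPM in mature hepatocytes. Hepatoblasts replicate 1 stood apart, with a sum of 2888 CPM over 10 erythroid markers against 352 to 588 CPM in the other hepatoblast libraries and 341 CPM over 11 macrophage markers against 85.3 to 96.8 CPM. The sum over 5 bile duct markers was 12.9 to 15.0 CPM in hepatoblasts and 15.4 to 40.6 CPM in mature hepatocytes, but 213 CPM in replicate 1 and 69.9 to 93.4 CPM in replicates 2 to 4 of Diff. hepatocytes. The sum over 8 mesenchymal and stellate markers was 1078 to 1906 CPM, 1047 to 2368 CPM and 60.9 to 91.0 CPM in hepatoblasts, the culture and mature hepatocytes. The part of these cells in the results was not tested. The scaling used the trimmed mean of M values (TMM), and a gene was called changed at an edgeR adjusted p under 0.01 with an absolute log2 fold change over 1. Of the 5 bile duct markers, Krt19, Krt7 and Epcam were called higher in Diff. hepatocytes than in hepatoblasts and than in mature hepatocytes. Sox9 (log2 fold changes 0.01 and -0.92) and Spp1 (1.03 and -0.96) were not called in these comparisons. In bulk RNA, fewer cells of a type and less RNA per cell cannot be told apart.

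Apolipoprotein genes took a growing share of the RNA from hepatoblasts to Diff. hepatocytes to mature hepatocytes. The 10 genes together held 1.59%, 1.93%, 2.06% and 2.21% of the counts in hepatoblasts replicates 1 to 4. In Diff. hepatocytes they held 2.41%, 3.28%, 2.91% and 2.97%, and in mature hepatocytes 4.96%, 4.31%, 4.802% and 5.30%. The 3 groups did not overlap. The group means were 1.95% ± 0.27, 2.90% ± 0.36 and 4.84% ± 0.41 (SD, n = 4 each).

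The make-up of this share also differed between the groups. These are shares of counts, which also depend on exon length, and they do not rank the genes by level. In hepatoblasts Apob held 31.9% ± 2.1 of the counts on the 10 genes, Apoa1 30.3% ± 1.4, Apoe 22.1% ± 0.55 and Apoa2 14.2% ± 0.08. Apob has 13934 merged exon bases, and per kilobase it stood 4th in hepatoblasts, where Apoa2 had the highest mean. In mature hepatocytes Apoe, the ligand by which remnant particles bind their receptors, held 42.3% ± 2.5 of them, Apoa1 20.2% ± 2.2 and Apob 14.9% ± 2.3. Diff. hepatocytes had 36.4% ± 0.98 on Apoe and 33.9% ± 0.97 on Apoa1. Apoc3 and Apoa5 together with Apoa4 were minor everywhere, yet Apoc3 went from 0.0236% ± 0.003 of the counts on these genes in hepatoblasts to 3.08% ± 0.33 in mature hepatocytes.

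**Figure D1:**
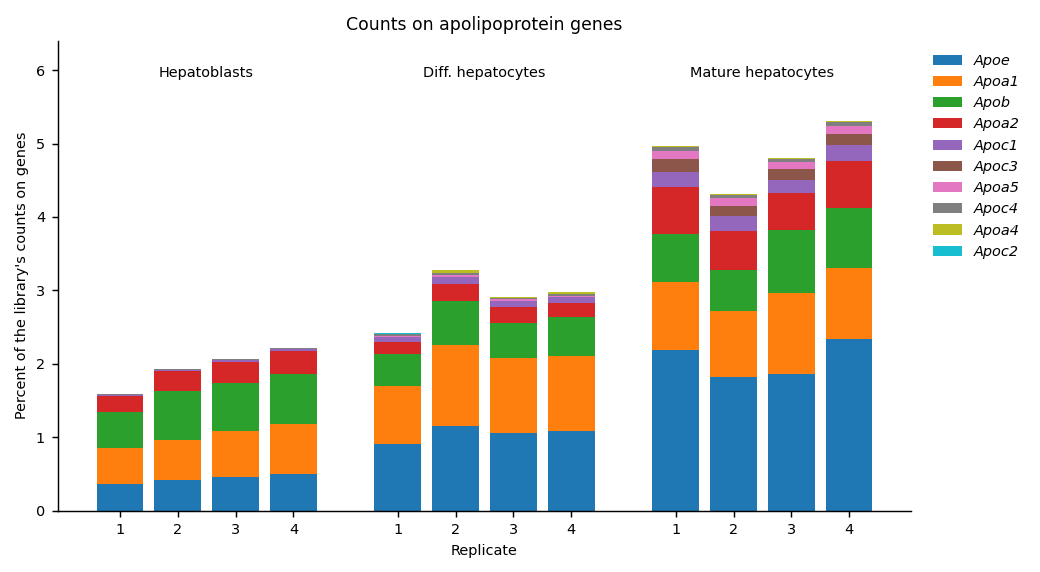
Percent of the counts on genes (y axis, from 0) that fell on each of the 10 apolipoprotein genes, stacked, in each library (x axis, replicates 1 to 4 of the 3 groups). The stacks end at 1.59% to 2.21% in hepatoblasts, 2.41% to 3.28% in the culture and 4.31% to 5.30% in mature hepatocytes, and Apoe is the widest band in all 4 mature hepatocyte libraries.

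Across the whole table, 17779 genes had over 10 counts in at least 1 library and were tested, and all 10 apolipoprotein genes were among them. Apoa4 had 4 to 7 counts per hepatoblast library and passed only through the other groups, so its difference from hepatoblasts was partly built in. In Diff. hepatocytes against hepatoblasts 8 of the 10 were called higher and 0 lower, where 14.9% of the tested genes were called higher and 14.0% lower. At an unadjusted p under 0.05 edgeR also had 0 lower, and DESeq2 called 8 higher and 0 lower. In mature hepatocytes against hepatoblasts 9 were called higher and 0 lower, beside a background of 20.1% higher and 24.7% lower, with 0 lower at an unadjusted p under 0.05 and the same 9 and 0 by DESeq2. In Diff. hepatocytes against mature hepatocytes 2 were called higher and 7 lower, beside 20.2% and 15.6% of the tested genes. With at least 10 counts required in every library, Apoa4 and Apoc2 were not tested. Of the other 8, 6 in Diff. hepatocytes and 7 in mature hepatocytes were called higher than in hepatoblasts, where 1390 and 2252 of 11090 tested genes were. Between the hepatocyte groups 6 were called lower in culture, where 1593 of the 11090 were. In each of the 3 comparisons 0 were called the other way. Over the 10 genes the log2 fold changes of these comparisons had medians of 1.80, 3.15 and -1.69, where the tested genes had -0.01, -0.15 and 0.09. Each group is used in a pair of these comparisons, so their counts are not independent.

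Scaling mattered for the size of these values. The TMM factors lay between 1.23 and 1.44 in hepatoblasts, 1.03 and 1.08 in the culture and 0.677 and 0.778 in mature hepatocytes. With plain library totals the median of the tested genes moved to -0.34, -1.0 and 0.62, so that 35.4%, 20.2% and 75.6% of the called genes were higher in place of 51.5%, 44.9% and 56.4%. With totals the apolipoprotein calls were 7 higher, 7 higher, and 2 higher with 5 lower, and Apoa1 and Apob were among those no longer called. Ratios between genes of the same library do not carry this scaling, and they are given for each cluster below.

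**Figure D2:**
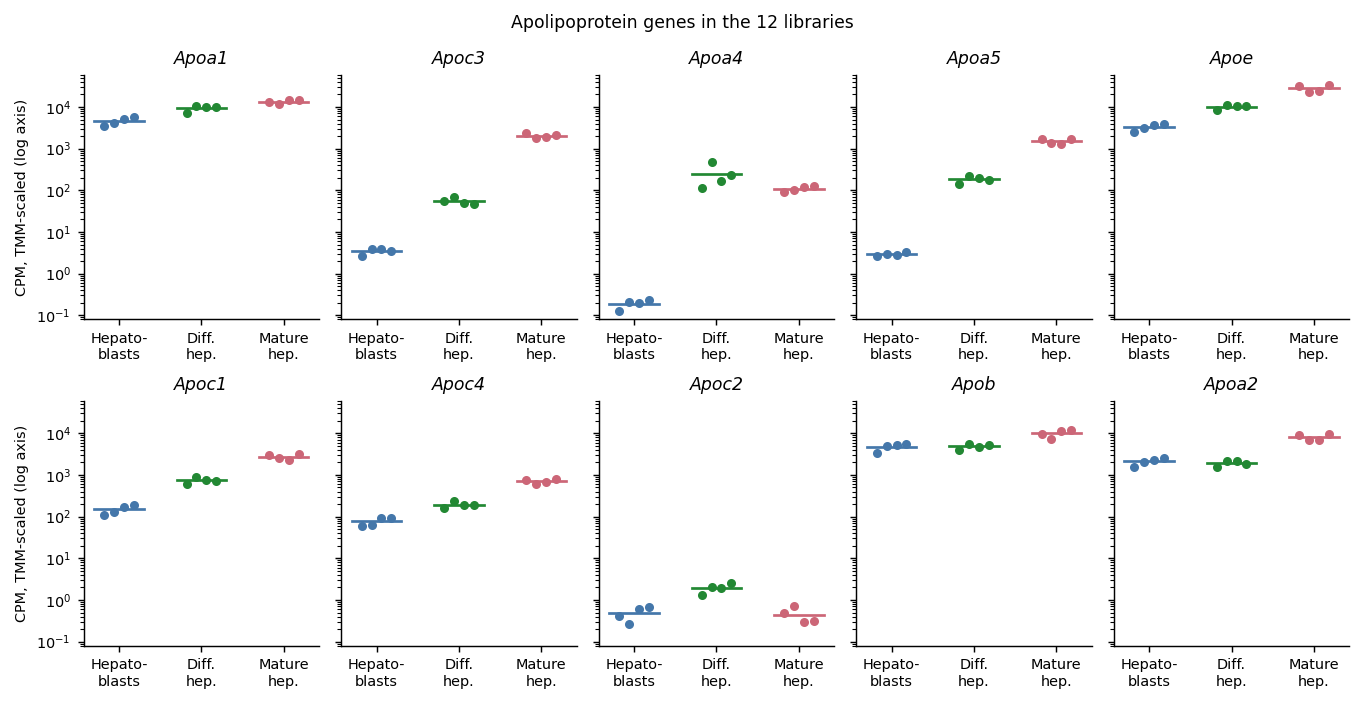
TMM-scaled CPM (y axis, log scale) of each apolipoprotein gene in the 12 libraries, with a point per library, a line at the group mean of 4 and the groups on the x axis. Apoc3, Apoa4 and Apoa5 start under 4 CPM in hepatoblasts, whereas Apoa1, Apob, Apoe and Apoa2 are at 1515 CPM or more in each library.

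The Apoa1, Apoc3, Apoa4 and Apoa5 genes lie within 43.3 kb of chromosome 9 (GRCm38, chr9:46228580-46271919), and these 4 neighbours differed strongly in how far they changed. Apoa1, encoded at chr9:46228580-46230466 on the plus strand, had 3445, 4119, 5011 and 5589 CPM in the hepatoblast libraries. In Diff. hepatocytes it had 7287, 10500.1, 9940 and 9816 CPM, and in mature hepatocytes 13151, 11645, 14541 and 14297 CPM. The 3 groups did not overlap, and the gene was already abundant in hepatoblasts. Apoa1 was 2.07-fold higher in Diff. hepatocytes than in hepatoblasts, with a log2 fold change of 1.05 ± 0.17 (SE) and an edgeR adjusted p of 0.000176. It was 2.95-fold higher in mature hepatocytes, at 1.56 ± 0.18 on the log2 scale (edgeR adjusted p = 2.95e-06). The first call sat at the fold threshold and was lost without hepatoblasts replicate 1 (0.945), hepatoblasts replicate 2 (0.999) or Diff. hepatocytes replicate 2 (0.974). Between Diff. hepatocytes and mature hepatocytes the log2 difference was -0.51 ± 0.17, which was not called and was 0.01 with library totals.

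The promoter windows of 3 of the genes in this cluster are shown because the neighbours had such unequal levels. They are the 250 bases before a RefSeq start on the plus strand of chromosome 9, from the RefSeq table with build GRCm38.p6, for Apoa1 (chr9:46228380-46228629), Apoa4 (chr9:46240594-46240843) and Apoa5 (chr9:46268358-46268607). Capitals mark an HNF4 motif, CAAAGTNCA, or a TATA box, TATAAA, searched on both strands.
Apoa1: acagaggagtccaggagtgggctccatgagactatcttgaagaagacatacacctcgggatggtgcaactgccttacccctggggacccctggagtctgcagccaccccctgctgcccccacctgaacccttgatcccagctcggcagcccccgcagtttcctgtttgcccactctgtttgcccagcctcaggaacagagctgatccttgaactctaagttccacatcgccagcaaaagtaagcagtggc
Apoa4: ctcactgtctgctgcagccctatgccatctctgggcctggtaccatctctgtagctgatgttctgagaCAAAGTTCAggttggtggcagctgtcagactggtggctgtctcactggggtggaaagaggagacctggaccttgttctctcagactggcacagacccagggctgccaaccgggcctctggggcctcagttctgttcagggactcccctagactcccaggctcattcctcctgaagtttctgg
Apoa5: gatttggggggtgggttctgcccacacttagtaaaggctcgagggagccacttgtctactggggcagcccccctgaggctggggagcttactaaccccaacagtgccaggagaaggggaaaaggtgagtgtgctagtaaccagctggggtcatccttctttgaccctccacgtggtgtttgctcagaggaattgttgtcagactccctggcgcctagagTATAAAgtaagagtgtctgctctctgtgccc
The HNF4 letters stood 182 bases before the start in the Apoa4 window and in 1 of the 12 windows found for 8 of the 10 genes. They were in 1.19% of the 32851 promoter windows of the table. The TATAAA letters stood 31 bases before the start of Apoa5, in 5 of the 12 windows and in 12.4% of the table. Among the 5 are overlapping Apoa5 windows that hold the same letters, 31 and 56 bases before their starts. Elsewhere the letters stood 212 bases before a start of Apoa2, 60 before that of Apob, and 96 and 100 before a start of Apoe. The 5 windows are thus not independent. The RefSeq starts of Apoa1 and Apoa4 lie inside the genes as GENCODE M21 draws them, so their windows overlap annotated exon or intron. Apoc1 and Apoc3 had no window. An HNF1 half-site, GTTAAT, and a nuclear receptor half-site, AGGTCA, were searched as well. They stood in 2 and 3 of the 12 windows and in 6.43% and 14.0% of the table, and in none of the windows shown. The part of any of these letters in the levels was not tested.

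Apoc3, whose product restrains lipoprotein lipase and particle clearance, is transcribed from the minus strand at chr9:46232933-46235636. Its hepatoblast libraries had 2.61, 3.91, 3.95 and 3.51 CPM, and Diff. hepatocytes had 54.1, 70.2, 50.1 and 45.7 CPM. Mature hepatocytes had 2397, 1839, 1884 and 2091 CPM. The groups were far apart in both steps. Apoc3 rose 15.7-fold in Diff. hepatocytes (3.97 ± 0.18 on the log2 scale, edgeR adjusted p = 1.79e-09) and was 586-fold higher in mature hepatocytes than in hepatoblasts (9.20 ± 0.22). Diff. hepatocytes reached 2.68% of the mature level, a log2 difference of -5.22 ± 0.18 (edgeR adjusted p = 6.98e-11) and the lowest of the 10 genes.

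Apoa4, which encodes a lipid-binding protein best known from the intestine, lies at chr9:46240696-46243459 on the plus strand. It had 0.129, 0.209, 0.194 and 0.232 CPM in hepatoblasts. In Diff. hepatocytes it had 112, 480, 171 and 237 CPM, and in mature hepatocytes 88.9, 101, 119 and 130 CPM. Both hepatocyte groups lay far above hepatoblasts, and replicate 2 was the highest of the Diff. hepatocytes. The log2 fold change was 10.31 ± 0.55 in Diff. hepatocytes (edgeR adjusted p = 7.12e-09) and 9.13 ± 0.54 in mature hepatocytes (edgeR adjusted p = 4.95e-09), against 4 to 7 counts per hepatoblast library. The gene passed the count filter only through the hepatocyte groups, so both differences were partly built in and their p-values are no independent support.

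Apoa4 was also the gene of this cluster whose mean was higher in culture than in the adult cells, at 2.28-fold. The log2 difference of 1.19 ± 0.33 was called (edgeR adjusted p = 0.00638), but Diff. hepatocytes replicate 1 lay inside the mature range and the exact permutation test of the 8 libraries gave p = 0.0857, with 0.0286 the smallest p it allows. Without Diff. hepatocytes replicate 2 the log2 difference was 0.65 and not called. The call was also lost in the fit of only the 8 libraries compared (1.20), with the replicate number as a block (0.99), without Diff. hepatocytes replicate 4 (1.21) or without mature hepatocytes replicate 1 (1.10), replicate 2 (1.14), replicate 3 (1.23) or replicate 4 (1.275). The annotated gene Gm47528 lies on the opposite strand of Apoa4 exons and had 1 to 47 counts per library, and Gm10680, also opposite, had 0 or 1. The libraries keep strand, but the strand setting used in counting is not given in the sources used here.

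Apoa5, which encodes an activator of lipoprotein lipase made by the liver, lies at chr9:46268633-46271919 on the plus strand. Hepatoblasts had 2.67, 2.92, 2.85 and 3.38 CPM. Diff. hepatocytes had 142, 222, 197 and 173 CPM, and mature hepatocytes had 1718, 1392, 1263 and 1695 CPM. The groups did not overlap and the libraries of each stayed close together. Apoa5 was 62.0-fold higher in Diff. hepatocytes than in hepatoblasts, at 5.95 ± 0.18 on the log2 scale (edgeR adjusted p = 6.78e-11), and 512-fold higher in mature hepatocytes, at 9.001 ± 0.21. The culture reached 12.1% of the mature level (log2 difference -3.05 ± 0.15, edgeR adjusted p = 2.42e-09).

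Within-library ratios gave the same picture without any scaling. Apoa1 had 1289 times as many counts as Apoc3 in hepatoblasts, 171 times in the culture and 6.54 times in mature hepatocytes. The Apoa1/Apoc3 log2 ratios were 10.36, 10.04, 10.30 and 10.63 in hepatoblasts, 7.07, 7.23, 7.63 and 7.75 in Diff. hepatocytes and 2.46, 2.66, 2.95 and 2.77 in mature hepatocytes. These ranges did not touch. The Apoa1/Apoa5 log2 ratio was 10.56 ± 0.21 (SD), 5.68 ± 0.11 and 3.15 ± 0.26 in the same order of groups. For Apoa1/Apoa4 the order of the last groups was the other way round, with 14.43 ± 0.18, 5.43 ± 0.71 and 6.94 ± 0.19. The 4 Apoa1/Apoa4 values of Diff. hepatocytes, 6.02, 4.45, 5.86 and 5.37, lay below the lowest mature value of 6.78. The exact permutation tests, two-sided and adjusted over the 24 pairs and comparisons made in this report, each gave an adjusted p of 0.0343 for the 9 contrasts of these 3 pairs, and no test of 4 against 4 libraries can give an unadjusted p below 0.0286.

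**Figure D3:**
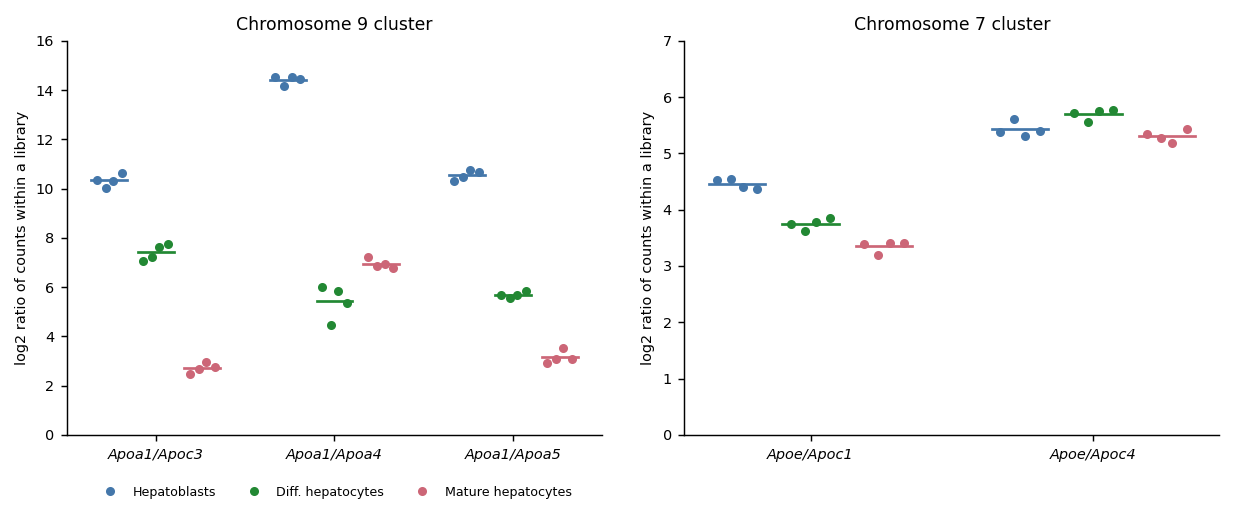
Log2 ratio of the raw counts of 2 neighbouring genes within a library (y axis), with a point per library and a line at the group mean of 4, for the chromosome 9 cluster (left) and the chromosome 7 cluster (right). The group means of the Apoa1 ratios run from 14.43 down to 2.71, whereas Apoe/Apoc4 stays between 5.19 and 5.78 in all 12 libraries.

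The Apoe, Apoc1, Apoc4 and Apoc2 genes share 27.6 kb of chromosome 7 (chr7:19671579-19699188), all on the minus strand, and Apoe, Apoc1 and Apoc4 rose in both hepatocyte groups by more similar amounts. Apoe, at chr7:19696109-19699188, had 2479, 3090, 3683 and 3980 CPM in hepatoblasts. It had 8366, 10917, 10321 and 10482 CPM in Diff. hepatocytes, and 31257, 23331, 24708 and 34525 CPM in mature hepatocytes. The groups did not overlap, and hepatoblasts replicate 1 was the lowest library. Apoe rose 3.03-fold in Diff. hepatocytes (1.60 ± 0.19 on the log2 scale, edgeR adjusted p = 8.36e-06) and was 8.60-fold higher in mature hepatocytes than in hepatoblasts (3.10 ± 0.20, edgeR adjusted p = 1.06e-08). The culture was at 35.2% of the mature level, at -1.51 ± 0.19 on the log2 scale (edgeR adjusted p = 1.09e-05), which was no longer called with library totals (-0.97).

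Macrophages also make Apoe, so their markers are given beside it. The 11 macrophage markers, of which 0 were at 0 in any group, summed to 85.3 to 341 CPM in the hepatoblast libraries, 36.8 to 274 CPM in the culture and 144 to 282 CPM in the mature libraries. Of the single markers, Clec4f and Cd163 were called higher in mature hepatocytes than in hepatoblasts and Marco lower, and the other 8 were not called. The part of macrophages in the Apoe values was not tested. Leaving out any library kept the Apoe log2 fold change of mature hepatocytes against hepatoblasts between 2.98 and 3.20.

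Apoc1, which encodes an inhibitor of receptor binding, lies at chr7:19689481-19692660. Hepatoblasts had 107, 132, 175 and 192 CPM and Diff. hepatocytes 621, 892, 755 and 727 CPM. Mature hepatocytes had 2971, 2539, 2316 and 3234 CPM. The groups did not overlap, and Apoc1 changed further than its neighbour Apoe. The log2 fold changes were 2.31 ± 0.19 in Diff. hepatocytes and 4.19 ± 0.21 in mature hepatocytes against hepatoblasts, with edgeR adjusted p of 3.26e-07 and 9.58e-10. Diff. hepatocytes reached 27.1% of the mature level (-1.88 ± 0.19, edgeR adjusted p = 1.33e-06).

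Apoc4, at chr7:19678083-19681479, encodes a minor apolipoprotein of the liver. It had 59.6, 63.0, 93.4 and 93.9 CPM in hepatoblasts and 160, 232, 191 and 191 CPM in Diff. hepatocytes. In mature hepatocytes it had 767, 602, 677 and 795 CPM. The groups were again separate. The gene was 2.496-fold higher in Diff. hepatocytes (1.32 ± 0.17, edgeR adjusted p = 1.98e-05) and 9.17-fold higher in mature hepatocytes than in hepatoblasts (3.20 ± 0.18, edgeR adjusted p = 3.41e-09), and the culture reached 27.2% of the mature level.

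The Apoe/Apoc1 log2 ratio was 4.46 ± 0.09 (SD) in hepatoblasts, 3.75 ± 0.10 in the culture and 3.36 ± 0.10 in mature hepatocytes. All 3 contrasts had a permutation adjusted p of 0.0343. The Apoe/Apoc4 log2 ratio moved little, with 5.43 ± 0.14, 5.70 ± 0.10 and 5.31 ± 0.11. Mature hepatocytes and hepatoblasts differed by -0.11 ± 0.09 (SE) in this ratio, which did not pass the exact test (adjusted p = 0.286), and Diff. hepatocytes and hepatoblasts by 0.28 ± 0.08 (permutation adjusted p = 0.0653). Diff. hepatocytes were above mature hepatocytes by 0.39 ± 0.07 (permutation adjusted p = 0.0343).

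No level could be given for Apoc2, the activator that lipoprotein lipase needs. Of its 813 merged exon bases, 646 (79.5%) are shared on the same strand with the annotated read-through gene Gm44805, and counting by STAR leaves out reads that overlap exons of more than 1 gene. Gm44805 itself had 0 counts in all 12 libraries. Apoc2 had 13, 9, 19 and 20 counts in hepatoblasts, 30, 48, 43 and 53 in Diff. hepatocytes and 7, 11, 5 and 5 in mature hepatocytes, and the groups of Diff. hepatocytes and the others did not overlap. It was called higher in Diff. hepatocytes than in hepatoblasts (1.996 ± 0.34 on the log2 scale, edgeR adjusted p = 0.000233) and than in mature hepatocytes (2.13 ± 0.37, edgeR adjusted p = 0.000214), and it counts among the calls above. These values describe the unshared remainder of the exons. Without Apoc2 the calls were 7 of 9 higher in Diff. hepatocytes, 9 of 9 higher in mature hepatocytes, and 1 higher and 7 lower between the hepatocyte groups. Apoc4 shares 119 of its 2537 exon bases (4.7%) with Gm44805, and the other 8 genes share no exon base on the same strand.

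Apob and Apoa2 stood outside the clusters and did not pass the test in Diff. hepatocytes against hepatoblasts. Apob, at chr12:7977648-8016835 on the plus strand, had 3348, 5065, 5172 and 5499 CPM in hepatoblasts and 4054, 5623, 4659 and 5152 CPM in Diff. hepatocytes. Mature hepatocytes had 9372, 7151, 11445 and 12042 CPM. The first groups overlapped, and all mature libraries lay above both. The log2 difference between Diff. hepatocytes and hepatoblasts was 0.03 with a 95% interval of -0.39 to 0.45 (edgeR adjusted p = 0.905), and its sign turned without hepatoblasts replicate 1 (-0.10), without Diff. hepatocytes replicate 2 (-0.06) and with library totals (-0.28).

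In mature hepatocytes Apob was 2.097-fold higher than in hepatoblasts (1.07 ± 0.20, edgeR adjusted p = 0.000279) and Diff. hepatocytes had 48.7% of the mature level (-1.04 ± 0.20, edgeR adjusted p = 0.000439). Both calls lay at the fold threshold. The first was lost without hepatoblasts replicate 1 (0.93), mature hepatocytes replicate 3 (0.99) or mature hepatocytes replicate 4 (0.96). The other was lost without Diff. hepatocytes replicate 1 (-0.96), mature hepatocytes replicate 3 (-0.97) or mature hepatocytes replicate 4 (-0.94). With library totals the values were 0.22 and -0.50.

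Apoa2, the other major protein of high density lipoprotein, lies at chr1:171225054-171226379 on the plus strand. It had 1559, 2039, 2341 and 2547 CPM in hepatoblasts and 1515, 2153, 2133 and 1867 CPM in Diff. hepatocytes, which overlapped. Mature hepatocytes had 9028, 6834, 6706 and 9443 CPM, above all other libraries. The log2 difference between Diff. hepatocytes and hepatoblasts was -0.15 with a 95% interval of -0.54 to 0.25 (edgeR adjusted p = 0.506). Against mature hepatocytes it was -2.06 ± 0.19 (edgeR adjusted p = 5.7e-07), or 4.17-fold lower, while mature hepatocytes were 3.77-fold above hepatoblasts (edgeR adjusted p = 7.09e-07).

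The RNAs of Apoa1 and Apoa2 changed by unequal amounts in culture. The Apoa1/Apoa2 log2 ratio was 1.14, 1.014, 1.10 and 1.13 in hepatoblasts and 2.27, 2.29, 2.22 and 2.39 in Diff. hepatocytes. In mature hepatocytes it was 0.54, 0.77, 1.12 and 0.60. Diff. hepatocytes lay above both other groups, by 1.19 ± 0.05 (SE) over hepatoblasts and 1.54 ± 0.13 over mature hepatocytes (permutation adjusted p = 0.0343 each). The mature and hepatoblast libraries differed by -0.34 ± 0.13, which did not pass (permutation adjusted p = 0.0935). Apoa1/Apob showed a smaller excess in culture, with log2 ratios of 0.94 ± 0.11 (SD) in Diff. hepatocytes, 0.45 ± 0.20 in mature hepatocytes and -0.07 ± 0.16 in hepatoblasts, and all 3 contrasts had a permutation adjusted p of 0.0343. Of these, the contrast of the hepatocyte groups did not pass without any 1 of the 4 Diff. hepatocytes libraries (permutation adjusted p = 0.0653 to 0.0686), nor did that of mature hepatocytes and hepatoblasts without hepatoblasts replicate 2 (permutation adjusted p = 0.0653). Without mature hepatocytes replicate 3 the Apoa1/Apoa2 difference between mature hepatocytes and hepatoblasts passed (permutation adjusted p = 0.0327). Over the 8 pairs examined, 6 passed in Diff. hepatocytes against hepatoblasts, 6 in mature hepatocytes against hepatoblasts and 8 between the hepatocyte groups. These counts include Apoe/Apoc2, which rests on the unshared Apoc2 counts and gives no ratio of levels. That pair passed in both comparisons with mature hepatocytes (permutation adjusted p = 0.0343 each). It did not pass in Diff. hepatocytes against hepatoblasts (permutation adjusted p = 0.179).

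**Figure D4:**
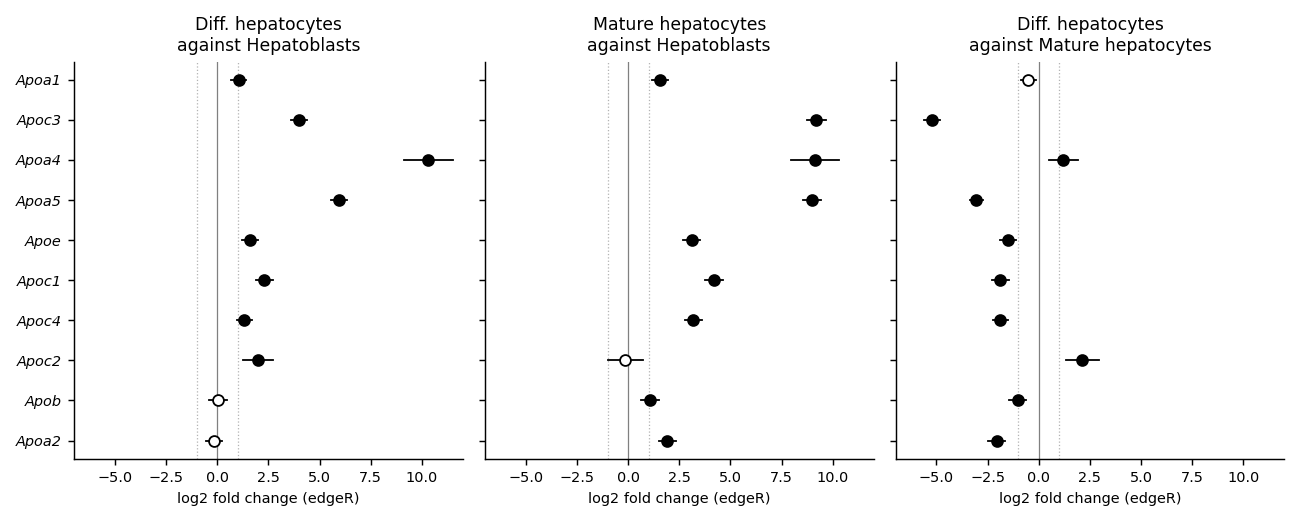
Log2 fold change (x axis) of each apolipoprotein gene in the 3 comparisons, with the 95% interval of the edgeR fit as a line, filled points for called genes, open points for the others and dotted lines at the fold threshold. In the comparison of the hepatocyte groups Apoc3 lies at -5.22 and Apoa5 at -3.05, whereas Apoa4 lies at 1.19 with replicates that overlap, and the Apoc2 points rest on 5 to 53 counts per library.

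Levels of different genes were compared only per kilobase of exon, with merged exons as the length unless stated. In hepatoblasts Apoa2 had 3951 ± 799 CPM per kb and Apoa1 3674 ± 767, whose libraries overlapped, followed by Apoe with 1547 ± 311. Apob (342 ± 69) and Apoc1 (204 ± 52) overlapped as well, and Apoc4 (30.5 ± 7.4), Apoc3 (3.45 ± 0.61), Apoa5 (1.17 ± 0.12) and Apoa4 (0.105 ± 0.024) followed without overlap. In Diff. hepatocytes Apoa1 led with 7594 ± 1157 CPM per kb, above every library of Apoe (4687 ± 530), which overlapped with Apoa2 (3570 ± 554). Apoc1 had 1006 ± 150 and Apob 350 ± 48. Apoa4 (138 ± 89), Apoc4 (76.2 ± 12), Apoa5 (72.8 ± 14) and Apoc3 (54.2 ± 11) came next, and each overlapped with its neighbour in this order. In mature hepatocytes Apoa2 (14903 ± 2672), Apoe (13309 ± 2490) and Apoa1 (10848 ± 1070) overlapped in that order. Apoc1 had 3716 ± 557 and Apoc3 2025 ± 251 CPM per kb, above Apob (718 ± 159) and Apoa5 (602 ± 89), which overlapped, then Apoc4 (280.0 ± 35) and Apoa4 (60.5 ± 10). Apoc3 thus stood 7th of the 10 genes in hepatoblasts, 9th in the culture and 5th in mature hepatocytes, Apoc2 being ranked by its unshared counts. Parts of this order depended on the length used. Per kilobase of the longest annotated transcript, Apoa1 led in hepatoblasts and Apoc3 stood 8th in the culture. Apoe (20210 ± 3780) then led Apoa2 (15449 ± 2770) in mature hepatocytes. In Diff. hepatocytes Apoa1 (9068 ± 1382) then overlapped with Apoe (7118 ± 804), and Apoe no longer overlapped with Apoa2.

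The pattern over the 12 libraries was compared by the root mean square difference of centred log2 CPM, where 0 means the same shape. Among the 10 genes Apoc4 and Apoe were the most alike with 0.190, ahead of Apoa1 and Apob with 0.435. Outside the family, 8697 genes with a mean of at least 10 CPM were searched. The gene most like Apoa1 was F12, coagulation factor XII, with 0.090, and Apob was closest to Nectin1 with 0.096. For Apoa2 it was 5033403H07Rik with 0.099, for Apoe 1600014C10Rik with 0.112, for Apoc4 Marc1 with 0.126 and for Apoc1 Gsta3 with 0.169. The genes that changed most had looser matches, with Rdh7 at 0.295 for Apoa5, Cyp2d9 at 0.302 for Apoc3 and Serpina3m at 0.415 for Apoa4. The measure is not scaled to the size of a change, so these values and the smaller ones above are not on a common footing. Gsta3, Rdh7, Cyp2d9 and Serpina3m belong to families of similar genes, between which counts can be split.

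The other genes of lipoprotein metabolism were taken from 7 lists of 80 genes, 78 of them tested. In Diff. hepatocytes against hepatoblasts 21 were called higher and 9 lower, and in mature hepatocytes against hepatoblasts 45 higher and 7 lower. Between Diff. hepatocytes and mature hepatocytes 4 were higher and 36 lower. The background shares are those given above, and they apply to the counts of the single lists below as well. With library totals these counts became 19 and 12, 29 and 11, and 6 and 22.

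**Figure D5:**
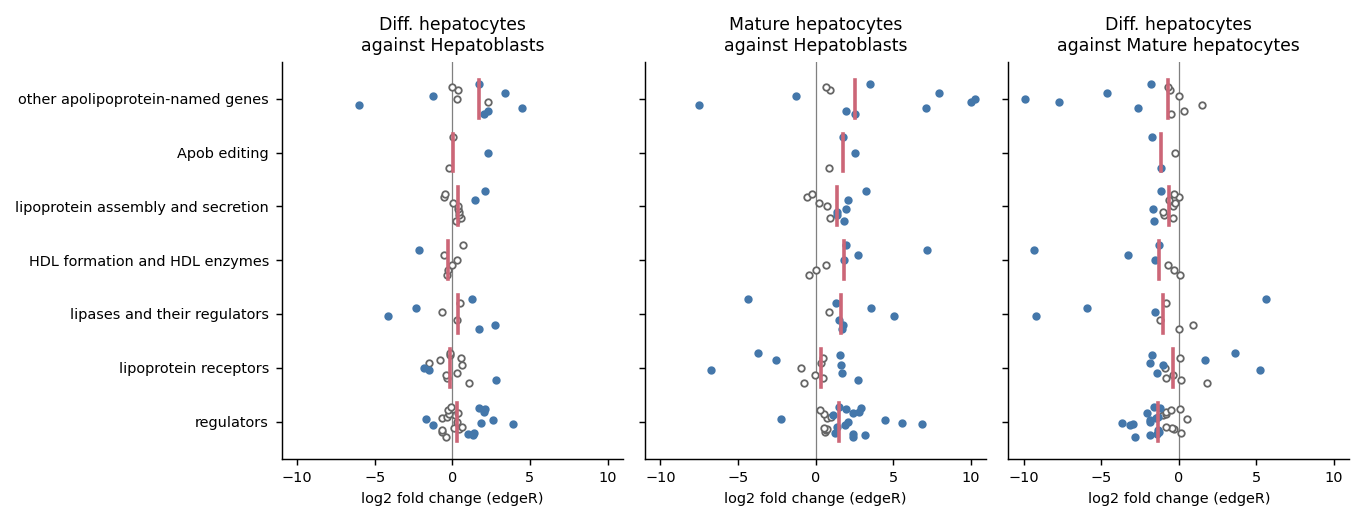
Log2 fold change (x axis) of each tested gene of the 7 lists in the 3 comparisons, with filled points for called genes, open points for the others and a red bar at the median of each list. The medians of Diff. hepatocytes against mature hepatocytes lie left of 0 in all 7 lists, from -0.38 for receptors to -1.33 for regulators.

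Of the other apolipoprotein-named genes, 11 of 13 were tested, since Apod and Apol6 had at most 6 counts in a library. Apof, Apoh, Apol7a, Apon and Clu were called higher in Diff. hepatocytes than in hepatoblasts, and Apol8 and Apom lower. Apon had 1.84 ± 0.15 CPM in hepatoblasts, 19.2 ± 2.1 in the culture and 466 ± 57 in mature hepatocytes, and the culture differed from the mature level by -4.60 ± 0.12 on the log2 scale (edgeR adjusted p = 5.8e-12). Apom, which carries sphingosine 1-phosphate in high density lipoprotein, fell by 1.24 in Diff. hepatocytes and by 1.28 in mature hepatocytes on the log2 scale (edgeR adjusted p = 6.9e-06 and 2.79e-06). Clu (apolipoprotein J) had 179 ± 35 CPM in hepatoblasts, 590.0 ± 124 in the culture and 2051 ± 163 in mature hepatocytes.

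In mature hepatocytes against hepatoblasts 7 of these genes were higher, and Apol8 and Apom were lower. Apol9b was near 0 in both embryonic groups, with 0 to 5 counts per library, and had 104 ± 24 CPM in mature hepatocytes, and Apol9a had 63.5 ± 26 CPM there. Apol9a had 0 to 10 counts per library in those groups. Both genes were tested only through the mature libraries, so their calls against mature hepatocytes were built in by the filter, and without them 5 genes were called higher in mature hepatocytes than in hepatoblasts and 3 lower in culture than in mature hepatocytes. Apol9a and Apol9b are near-identical neighbours, so the split between them is uncertain. Apol8 had 763 counts in hepatoblasts replicate 1 and 110 to 211 in the other hepatoblast libraries, and 0 to 5 counts in the hepatocyte libraries. That library also had the highest erythroid marker sum, whose part in the Apol8 values was not tested, and Apol8 was tested only through the hepatoblast libraries. Apol7a, Apol9a, Apol9b, Apon and Clu were the 5 called lower in culture than in mature hepatocytes, and 0 were called higher by edgeR or DESeq2, with 0 higher at an unadjusted p under 0.05.

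Apobec1 encodes the enzyme that edits Apob RNA to the short apoB-48 form. It had 3.25 ± 1.2 CPM in hepatoblasts, 15.9 ± 0.81 in the culture and 18.9 ± 5.3 in mature hepatocytes, and was called higher in both (2.29 ± 0.25 and 2.54 ± 0.26 on the log2 scale, edgeR adjusted p = 4.77e-06 and 9.39e-07). Its RNA-binding cofactors A1cf and Rbm47 did not pass in Diff. hepatocytes against hepatoblasts. Both were called lower in culture than in mature hepatocytes, by -1.13 ± 0.20 and -1.71 ± 0.13, and Rbm47 was 1.75 ± 0.13 higher in mature hepatocytes than in hepatoblasts.

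Among 11 genes of lipoprotein assembly and secretion, Sar1b and Tm6sf2 were called higher in Diff. hepatocytes than in hepatoblasts. By edgeR or DESeq2 0 were called lower, with 2 lower at an unadjusted p under 0.05. The count of higher genes lay near the background of 14.9%. Tm6sf2, which promotes lipid loading of very low density lipoprotein, had 2.67 ± 0.752, 11.35 ± 1.43 and 25.45 ± 4.23 CPM in hepatoblasts, Diff. hepatocytes and mature hepatocytes. Sar1b, the small GTPase of the vesicles that export these particles, was 1.43 ± 0.12 higher in culture on the log2 scale (edgeR adjusted p = 5.08e-07). Mttp, the transfer protein that lipidates apolipoprotein B, did not reach a call in any comparison, with 291 ± 63, 383 ± 62 and 486 ± 17 CPM. In mature hepatocytes 6 of the 11 were called higher than in hepatoblasts (Sar1b, Tm6sf2, Cideb, Dgat2, Mia2 and Mia3), and Tm6sf2, Cideb and Mia3 were called lower in culture than in mature hepatocytes.

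Of 7 genes of high density lipoprotein formation, Pon1 was called lower in Diff. hepatocytes than in hepatoblasts. By edgeR or DESeq2 0 were called higher, with 2 higher at an unadjusted p under 0.05. The count of lower genes lay near the background of 14.0%. Pon1, an antioxidant esterase carried on the particle, had 5.16 ± 1.6 CPM in hepatoblasts, 1.13 ± 0.37 in the culture and 733 ± 99 in mature hepatocytes, a log2 gap of -9.32 ± 0.29 between culture and adult (edgeR adjusted p = 2.44e-11). Lcat, which esterifies cholesterol on the particle with Apoa1 as its activator, had 132 ± 24, 166 ± 16 and 472 ± 57 CPM. Lcat, Pltp, Pon1 and Pon3 were the 4 called higher in mature hepatocytes than in hepatoblasts and also the 4 called lower in culture than in mature hepatocytes.

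Lipases and their regulators had mixed directions. Lpl, the lipase that Apoc2 activates, had 389 ± 72 CPM in hepatoblasts, 937 ± 90 in the culture and 18.7 ± 12 in mature hepatocytes, and was 5.64 ± 0.39 higher on the log2 scale in culture than in mature hepatocytes (edgeR adjusted p = 4.42e-08). The mesenchymal and stellate marker sum given above was also far lower in mature hepatocytes than in the other groups, and its part in the Lpl values was not tested. Of the 8 single markers, 6 were called lower in mature hepatocytes than in hepatoblasts, Lrat was called higher and Dcn was not called. In Diff. hepatocytes against hepatoblasts Col1a1, Des and Acta2 were called higher, Reln was called lower and the other 4 were not called. The Lpl difference between Diff. hepatocytes and hepatoblasts, 1.27 ± 0.32 (edgeR adjusted p = 0.00426), was no longer called without hepatoblasts replicate 1 (1.16), replicate 2 (1.26) or replicate 3 (1.29), or without Diff. hepatocytes replicate 2 (1.24), replicate 3 (1.23) or replicate 4 (1.25). The lipase inhibitor Angptl4 was also called higher in Diff. hepatocytes than in hepatoblasts, at 2.72 ± 0.32 on the log2 scale (edgeR adjusted p = 9.16e-06).

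In the same comparison Lipg, the endothelial lipase, and Gpihbp1 were called lower. Gpihbp1, which holds lipoprotein lipase on capillary endothelium, had 3 to 21 counts in hepatoblasts, 0, 0, 0 and 1 in Diff. hepatocytes and 106 to 189 in mature hepatocytes. The 8 endothelial markers summed to 32.7 to 127 CPM, 4.79 to 10.1 CPM and 122 to 220 CPM in these groups, and their part in the Gpihbp1 values was not tested. In mature hepatocytes Lipg, Lmf1, Gpihbp1, Angptl4 and Angptl8 were among those called higher than in hepatoblasts and Lpl lower. The Angptl8 call (1.54) was lost without hepatoblasts replicate 2 (1.46), mature hepatocytes replicate 1 (1.43) or mature hepatocytes replicate 3 (1.32). Lipc, the hepatic lipase, Lipg and Gpihbp1 were called lower in culture than in mature hepatocytes.

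Of 13 receptors and their partners, Cd36 was called higher and Lrp8 and Lrpap1 lower in Diff. hepatocytes than in hepatoblasts. These counts lay near the background of 14.9% higher and 14.0% lower among all tested genes. Lrp8, an Apoe receptor, had 17.7 ± 2.7, 6.18 ± 1.8 and 0.158 ± 0.04 CPM, and Vldlr, another, had 26.2 ± 6.15, 23.9 ± 3.9 and 1.97 ± 0.27 CPM over hepatoblasts, Diff. hepatocytes and mature hepatocytes. Lrp8 and Vldlr were among the 3 called lower in mature hepatocytes than in hepatoblasts and among the 3 called higher in culture than in mature hepatocytes. Lrp1, Cd36, Lsr and Sdc1 were called higher in mature hepatocytes than in hepatoblasts, and Lrp1, Lsr, Sdc1 and Mylip lower in culture than in mature hepatocytes. The call of Lsr (-1.04) was lost without mature hepatocytes replicate 3 (-0.94). Mylip (-1.88) lost its call without Diff. hepatocytes replicate 2 (-1.915), replicate 3 (-1.72) or replicate 4 (-1.68), or without mature hepatocytes replicate 1 (-1.81), replicate 3 (-1.83) or replicate 4 (-1.815).

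Transcription factors and nuclear receptors known to act on apolipoprotein genes made up the list of 25 regulators. In Diff. hepatocytes 9 were called higher than in hepatoblasts and 2, Nr2f1 and Mlxipl, lower. The 6 with the largest log2 fold changes among the higher were Nr0b2 (3.91), Nr1h4 (2.61), Rora (2.08), Ppara (2.01), Nr1d1 (1.86) and Rxra (1.69), with edgeR adjusted p up to 0.000929. Nr1h4, the bile acid receptor FXR, had 8.25 ± 2.3, 50.3 ± 4.5 and 185 ± 27 CPM in the 3 groups, and Nr0b2, the repressor SHP that it induces, had 0.544 ± 0.17, 8.21 ± 2.1 and 63.3 ± 24 CPM.

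In mature hepatocytes 16 regulators were called higher than in hepatoblasts and 1, Nr2f1, lower. Nr0b2 (6.85), Nr1d1 (5.55), Nr1h4 (4.49), Cebpb (3.19), Rxra (2.92) and Ppara (2.82) led the higher ones. Between the hepatocyte groups 15 were called lower in culture and 0 higher by edgeR or DESeq2 (0 higher at an unadjusted p under 0.05), led by Nr1d1 (-3.69), Mlxipl (-3.17), Nr0b2 (-2.95), Cebpa (-2.82), Onecut1 (-2.05) and Nr1h4 (-1.88). Hnf4a, whose product binds the HNF4 motif, had 409 ± 92, 618 ± 76 and 1087 ± 182 CPM. It was called only in mature hepatocytes against hepatoblasts (1.41 ± 0.18, edgeR adjusted p = 7.71e-06), with 0.60 ± 0.17 in Diff. hepatocytes against hepatoblasts and -0.81 ± 0.17 between the hepatocyte groups. With library totals the mature value was 0.56 and not called.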

How the data were processed

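Poly(A) RNA of the 12 libraries was sequenced as 75-bp single reads from strand-specific libraries. The authors used STAR 2.5.2b to map reads to GRCm38 and to quantify Ensembl release 92 genes. What they deposited are raw read counts, with no scaling applied. FastQC 0.11.2, Picard 2.10.2 and DESeq2 1.22.2 are also named in the submitters' processing notes. Whether duplicate reads were removed and which strand setting was used are not given in the sources used here. Symbols, exon lengths and positions came from GENCODE M21 (Ensembl release 96), in which 53620 of the 53715 identifiers were found. Of 140 list symbols 138 matched, Tf and Ahsp being the exceptions.

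Genes with over 10 counts in any library were fitted over all 12 libraries with edgeR 4.0.16 (R 4.3.3, quasi-likelihood test, TMM), with Benjamini-Hochberg adjustment over 17779 genes. The pipeline was tested on simulated data. Errors are SE for fold changes and SD for levels. Ratios used counts with 0.5 added and an exact two-sided permutation test (Python 3.11.15) over the 70 assignments of 8 libraries, adjusted over 24 tests. A ratio passed at an adjusted p under 0.05. P-values measure the spread between these libraries. The libraries of a group differed by more than sampling noise in every pair. Lists and members were chosen with earlier results of these data known. Named genes were the members, the gene most like each, genes overlapping a member, and list genes counted as called (at most 6 per direction by fold in lists with over 5 calls). Mttp, Hnf4a, Gm47528 and Gm10680 were named outside this rule after their values were seen, and some list genes are counted but not reported here by name. Alternatives were DESeq2 1.42.0, other scalings, thresholds and low-count filters, a fit of only the groups compared, a replicate block and leaving out each library.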

Additional observations from a re-analysis of the deposited data

Results flagged for a closer look

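Of 57 sets of 4 libraries examined (CPM of each gene, share of counts and log2 ratios), 2 held a library whose gap to its nearest neighbour exceeded Dixon's 95% limit, and chance gives about 2.9. The Apoe/Apoc1 log2 ratio of mature hepatocytes replicate 2 was 3.20, below 3.40 to 3.42 in the other mature libraries. The Apoe/Apoc2 log2 ratio of hepatoblasts replicate 2 was 13.4, above 12.5 in the others, and rests on the 9 unshared Apoc2 counts of that library.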

How the results depend on the processing

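The direction and call of Apoa5, Apoa2, Apoc1 and Apoc3 held in each of the 3 comparisons under all 23 alternatives, and 633 of the 684 single-gene values of the family kept theirs. Without 1 library, the genes called numbered 7 to 8 of 10 in Diff. hepatocytes against hepatoblasts, 8 to 9 in mature hepatocytes against hepatoblasts and 7 to 9 between the hepatocyte groups. With the fold threshold inside the DESeq2 test 5, 8 and 5 were called, and 26 of the 78 list genes between the hepatocyte groups in place of 40. At an adjusted p of 0.05 with no fold threshold 51 and 62 list genes were called in Diff. hepatocytes against hepatoblasts and against mature hepatocytes, in place of 30 and 40. The cause was not tested. Some signs turned. Apoa1 between the hepatocyte groups was 0.014 with library totals and 0.043 with totals lacking the 50 most abundant genes. Apob in Diff. hepatocytes against hepatoblasts was -0.280 and -0.075 there, -0.098 without hepatoblasts replicate 1 and -0.061 without Diff. hepatocytes replicate 2, in a range of -0.098 to 0.111 without 1 library. Apoc2 in mature hepatocytes against hepatoblasts was 0.028 without hepatoblasts replicate 4 and 0.013 without mature hepatocytes replicate 3, in a range of -0.455 to 0.028. Mttp was -0.097 in mature hepatocytes against hepatoblasts and 0.181 between the hepatocyte groups with library totals, and 0.211 in the latter with totals lacking the 50 most abundant genes. The share of counts on the 10 genes was 2.56%, 4.33% and 6.98% of the counts without the 50 most abundant other genes, and 1.498%, 2.76% and 6.70% of TMM-scaled library sizes, in hepatoblasts, Diff. hepatocytes and mature hepatocytes. For ratios, 6 to 7, 5 to 7 and 7 to 8 of 8 pairs, Apoe/Apoc2 included, passed without 1 library. With medians in place of means 0 pairs passed in any comparison, since the smallest permutation p reached was 0.0571. Same-numbered deviations correlated at 0.324, -0.059, 0.246 and 0.184 in hepatoblasts and Diff. hepatocytes, where 3 of 4 libraries matched their own number best. In the other comparisons the correlations were -0.081 to 0.092. Whether same-numbered libraries of hepatoblasts and Diff. hepatocytes came from the same isolation is not given in the sources used here. The numbers were not used as pairs in the main tests. As a replicate block they left 8, 9 and 8 genes called, Apoa4 between the hepatocyte groups being lost, and 0 ratio pairs, since 4 pairs allow no p below 0.125. A count of 5 to 53 limits Apoc2, and 4 to 7 counts limit Apoa4 in hepatoblasts.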
